A study of Mus musculus with 8 samples.

Results

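The genes described here are p53 targets and regulators of apoptosis, 47 genes chosen by symbol: p53 itself and proteins that control it, inhibitors of the cell cycle, genes that p53 switches on, the BCL2 family, caspases, death receptors and inhibitor of apoptosis proteins. Of these genes 44 had a probe under their symbol in the array's annotation, with 118 probes among the 45281 on the array, and 55 probes of 33 genes were above background on enough arrays to be tested. The cells were leukaemia stem cells carrying the MLL-AF9 fusion oncogene, on the C57BL/6 Actin-dsRed background, taken from the marrow of mice given a quaternary transplant of leukaemia and sorted for low Hoechst dye, dsRed, c-kit, CD34 and FcγRII. A pair of shRNA hairpins against Itgb3, the integrin beta 3 gene, were used, Itgb3-20 (2 arrays) and Itgb3-17 (3 arrays), and a control hairpin labelled Luc was used in the same kind of cells (3 arrays). All 3 groups therefore carried the oncogene, the reporter and a hairpin, and whether each array stands for its own mouse is not given in the labels, so a p-value here covers array-to-array spread that may be technical. The series asked how knockdown of Itgb3 changed gene expression in these primary leukaemia cells.

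In cells under stress the transcription factor p53, encoded by Trp53, is released from its inhibitors Mdm2 and Mdm4 and switches on genes that stop the cell cycle, such as Cdkn1a (p21), and genes that start apoptosis, such as Bbc3 (Puma). BH3-only proteins then neutralise BCL2, MCL1 and their relatives, BAX and BAK open the outer mitochondrial membrane, and cytochrome c assembles APAF1 and caspase-9 into the apoptosome. Death receptors such as FAS reach the same executioner caspases through FADD and caspase-8, a step that CFLAR blocks. Leukaemias with MLL fusions usually keep an intact Trp53 gene.

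Levels are log2 intensities after background correction and quantile normalization, and a change is a difference of such levels, which understates the change of dim probes. A probe was called when its adjusted p in limma, over the 13315 tested probes of the whole array, was under 0.05. Knockdown minus control is the mean of the hairpin groups minus the Luc group. Probes of a gene are numbered by falling mean level, and a level is never compared between probes.

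The Itgb3 probe was above background on 0 of 8 arrays, with detection p-values between 0.324 and 0.912, so the knockdown itself could not be checked here. Between 9262 and 11856 probes were above background on an array. The first principal component (42.1% of the variance) put the knockdown arrays between 8.01 and 26.9 and the control arrays between -30.2 and -19.8. The second (16.8%) put Itgb3-20 arrays at 26.6 and 7.95, Itgb3-17 arrays between -15.3 and -11.4 and Luc arrays between -2.13 and 4.55. Itgb3-20 arrays correlated at 0.967 with each other, against means of 0.984 to 0.986 within Itgb3-17 and 0.975 to 0.976 within Luc. Of the sorting markers Cd34 was above background on 1 of 8 arrays, and no Kit probe was called. Fcgr3 averaged 7.46 in Itgb3-20 arrays, 6.25 in Itgb3-17 arrays and 6.42 in Luc arrays, a rise of 1.04 with Itgb3-20 minus control (2.06-fold, adjusted p 0.00427) and a difference of 1.22 between the hairpins (adjusted p 0.0106). Of 4 tested Fcgr2b probes 1 was called, higher by 0.51 in knockdown minus control (adjusted p 0.0181) and by 0.58 with Itgb3-17 (adjusted p 0.0199). None of the 5 erythroid marker genes on the array was tested. Of 9 late granulocyte markers 7 were tested, with summed linear levels between 4526 and 4901 in Itgb3-20 arrays, between 2540 and 2597 in Itgb3-17 arrays and between 2532 and 2905 in Luc arrays. The 5 tested monocyte and macrophage markers summed to between 1433 and 1520 in Itgb3-20 arrays, between 690 and 879 in Itgb3-17 arrays and between 470 and 536 in Luc arrays. Of these lists Mmp8 and Ccr2 were above background on no array. The 5 myeloid progenitor markers, all tested, summed to between 22939 and 24221 in Itgb3-20 arrays, between 19263 and 21357 in Itgb3-17 arrays and between 15662 and 17687 in Luc arrays, with no overlap. The 5 tested of 11 genes of handling stress summed to between 530 and 599 in Itgb3-20 arrays, between 461 and 494 in Itgb3-17 arrays and between 411 and 502 in Luc arrays. The part of these marker levels in the changes with knockdown was not tested.

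Knockdown changed a small number of these genes, in both directions. Bad and Mcl1 rose with either hairpin, and 1 of 3 tested probes of Hipk2 and 1 of 3 of Apaf1 fell. With Itgb3-17, 1 of 3 tested probes of Cdkn1a, 1 of 2 of Bbc3 and 2 of 3 of Ccng1 rose. These probes were not called with Itgb3-20, with which Ccng1 probe 1 fell by 1.17 (adjusted p 0.00261). In such sorted samples fewer cells of a type and less RNA per cell cannot be told apart. In knockdown minus control 8 member probes rose and 3 fell, 20% of the 55 tested, beside 16.8% of all tested probes (8.93% higher and 7.84% lower). Called were 3 higher and 4 lower with Itgb3-20 minus control (12.7%, beside 11.0% of all probes, 5.71% higher and 5.27% lower), and 7 higher and 3 lower with Itgb3-17 minus control (18.2%, beside 12.9%, 7.22% higher and 5.69% lower). Each share of members called against the Luc control was thus above that of all probes, by a margin that was not tested. For Itgb3-20 minus Itgb3-17, 0 were higher and 3 lower, 5.45% beside 0.533% of all probes (0.248% higher and 0.285% lower). The median change of the 55 probes in knockdown minus control was 0.04, against 0.02 over all tested probes. By gene, with the probe of highest mean standing for each, 7 of 33 rose and 2 fell (27.3%, beside 17.7% of all 8189 genes, 9.46% higher and 8.25% lower).

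**Figure D1:**
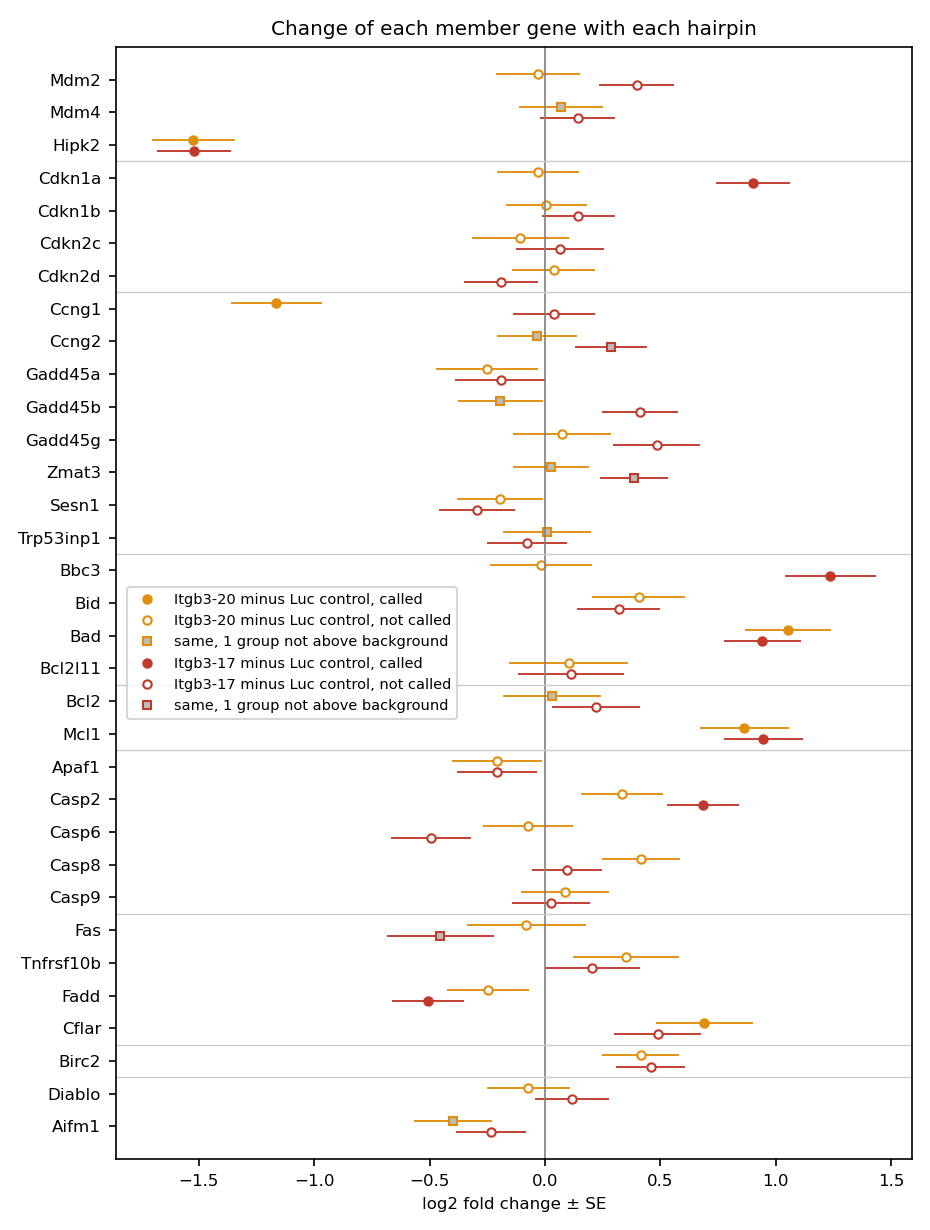
Change of each of the 33 measured genes with each hairpin, as the log2 fold change against the Luc control on the x axis with its SE, ordered by role down the page, for the probe of highest mean level. Filled points were called at adjusted p under 0.05 in limma: Hipk2, Bad and Mcl1 lie on the same side of 0 with both hairpins, whereas Cdkn1a and Bbc3 are called with Itgb3-17 and lie near 0 with Itgb3-20, and this Ccng1 probe is called with Itgb3-20 and lies near 0 with Itgb3-17. Squares mark a change in which 1 of the groups had no array above background.

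Hipk2, a kinase that phosphorylates p53 and favours its apoptotic programme, showed the lowest p of any member probe. Its probe 1 read 6.91 and 6.68 in Itgb3-20 arrays, 6.66, 6.81 and 6.91 in Itgb3-17 arrays, and 8.48, 8.35 and 8.13 in Luc arrays. All 5 knockdown arrays lay more than a full log2 unit below all 3 controls. The probe fell by 1.52 ± 0.144 (log2, SE) in knockdown minus control, a level 0.348 of control (adjusted p 4.21e-05), and by the same 1.52 with Itgb3-20 (adjusted p 0.000295) and with Itgb3-17 (adjusted p 0.000176). The other tested Hipk2 probes moved less. Probe 3 read 4.42 and 4.65 in Itgb3-20 arrays, 4.62, 4.75 and 4.62 in Itgb3-17 arrays, and 5.01, 5.02 and 4.91 in Luc arrays. These groups did not overlap either, but the change of -0.38 did not pass (adjusted p 0.0665). Probe 2 read 5.57 and 5.53 in Itgb3-20 arrays, 5.28, 5.09 and 5.0 in Itgb3-17 arrays, and 5.35, 5.53 and 5.26 in Luc arrays, with a change of -0.04 (adjusted p 0.885).

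Mdm2, the ubiquitin ligase that degrades p53 and is itself a p53 target, gave changes in knockdown minus control of 0.18 (adjusted p 0.441) on probe 1 and -0.36 (adjusted p 0.110) on probe 2. The probe 2 change was called with no background correction (-0.26, 0.0405) and with the authors' values (-0.26, 0.0429). Probe 2 read 7.28 and 7.45 in Itgb3-20 arrays, 8.02, 7.82 and 8.24 in Itgb3-17 arrays, and 8.02, 8.21 and 7.93 in Luc arrays. Both Itgb3-20 arrays were below every other array, and this probe fell with Itgb3-20 minus control by 0.69 ± 0.182 (adjusted p 0.0241), with a change of -0.03 for Itgb3-17 (adjusted p 0.939). The call was lost without Itgb3-20 replicate 4 (-0.60, adjusted p 0.170), Luc replicate 1 (-0.70, 0.0507) or Luc replicate 2 (-0.61, 0.0817), and under median scaling (-0.51, 0.458), with no filter (0.0561) and with array weights (0.0567). Probe 1 read 8.06 and 7.69 in Itgb3-20 arrays, 8.11, 8.44 and 8.36 in Itgb3-17 arrays, and 7.80, 7.99 and 7.93 in Luc arrays. The Itgb3-17 arrays held the highest values of this probe, but the change of 0.40 with Itgb3-17 did not pass (adjusted p 0.122), and that with Itgb3-20 was -0.03. The Itgb3-17 change was called with no background correction (0.31, 0.0331), with the authors' values (0.32, 0.0284) and under median scaling (0.81, 0.0221). Mdm4, which blocks p53's transactivation domain, was near background, with levels between 4.34 and 4.79 and a knockdown change of 0.11 (adjusted p 0.679).

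No probe of the array carried the symbol Trp53 in the annotation used. Cdkn2a, whose product ARF holds MDM2 in check, had 3 probes, of which the best was above background on 1 array.

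Cdkn1a encodes p21, the inhibitor of cyclin-dependent kinases through which p53 halts the cell cycle. Its probe 1 read 7.21 and 6.84 in Itgb3-20 arrays, 8.03, 8.04 and 7.81 in Itgb3-17 arrays, and 7.12, 7.08 and 6.96 in Luc arrays. The 3 Itgb3-17 arrays stood above all others, and the Itgb3-20 and Luc arrays overlapped. Before normalization the same probe had signals of 203 and 215 in Itgb3-20 arrays, 429, 289 and 383 in Itgb3-17 arrays, and 189.5, 199 and 195 in Luc arrays. The change was -0.03 ± 0.178 with Itgb3-20 (adjusted p 0.940) and 0.90 ± 0.160 with Itgb3-17, a 1.87-fold rise (adjusted p 0.0023). The mean over both hairpins was called at 0.44 (adjusted p 0.0479), and that call was lost without any 1 of Luc replicate 1 (0.47, 0.0882), 2 (0.45, 0.107) or 3 (0.39, 0.137), Itgb3-17 replicate 1 (0.42, 0.0940) or 2 (0.42, 0.0970), or Itgb3-20 replicate 4 (0.34, 0.156), and with no filter (0.0682), with array weights (0.0599) and with both hairpins taken as a single group (0.53, 0.145).

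Probe 2 of Cdkn1a read 4.56 and 5.12 in Itgb3-20 arrays, 5.23, 5.18 and 5.36 in Itgb3-17 arrays, and 4.70, 4.98 and 4.78 in Luc arrays. Its Itgb3-17 arrays were again the highest, but the change of 0.43 did not pass (adjusted p 0.111). Probe 3 read 4.32 and 4.92 in Itgb3-20 arrays, 4.65, 4.84 and 5.18 in Itgb3-17 arrays, and 5.41, 4.45 and 4.91 in Luc arrays, and its groups overlapped. Other inhibitors of the cell cycle, Cdkn1b (p27), Cdkn2c (p18) and Cdkn2d (p19), had 1 tested probe each, near background, with changes in knockdown minus control of 0.07, -0.02 and -0.08.

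Ccng1, the cyclin G1 gene and an early p53 target whose product recruits a phosphatase to MDM2, had 3 tested probes that did not move alike. Probe 1 read 6.05 and 6.53 in Itgb3-20 arrays, 7.66, 7.48 and 7.35 in Itgb3-17 arrays, and 7.71, 7.35 and 7.32 in Luc arrays. Here both Itgb3-20 arrays stood below all others, with a fall of 1.17 ± 0.197 with Itgb3-20 (0.446 of control, adjusted p 0.00261) and a change of 0.04 ± 0.176 with Itgb3-17 (adjusted p 0.918). The mean over hairpins fell by 0.56 (adjusted p 0.0232), a call lost without Luc replicate 1 (-0.44, 0.123) or Itgb3-20 replicate 4 (-0.44, 0.0878), with no filter (0.0851), with both hairpins as a single group (-0.44, 0.336) and under median scaling (-0.23, 0.611), which also ended the call with Itgb3-20 (-0.95, 0.108).

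Probe 2 of Ccng1 read 6.21 and 6.41 in Itgb3-20 arrays, 6.90, 6.65 and 7.18 in Itgb3-17 arrays, and 6.54, 6.33 and 5.95 in Luc arrays. Probe 3 read 5.14 and 5.16 in Itgb3-20 arrays, 5.77, 5.52 and 5.70 in Itgb3-17 arrays, and 5.14, 4.60 and 5.03 in Luc arrays. On both of these probes the Itgb3-17 arrays were the highest of the 8. Probe 2 rose with Itgb3-17 by 0.63 ± 0.186 (adjusted p 0.0341) and probe 3 by 0.74 ± 0.169 (adjusted p 0.00979), against changes of 0.04 and 0.23 with Itgb3-20 (adjusted p 0.933 and 0.496). For probe 2 the call was lost without Luc replicate 2 (0.66, 0.0759) or 3 (0.47, 0.132), without Itgb3-17 replicate 1 (0.63, 0.0936) or 3 (0.50, 0.142), and with no filter (0.142). For probe 3 it was lost without Luc replicate 2 (0.59, 0.0503) or Itgb3-17 replicate 1 (0.65, 0.0566), and its mean over hairpins, 0.48 (adjusted p 0.0396), was lost in 13 of 16 alternatives, with an adjusted p as high as 0.203 without Luc replicate 2.

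**Figure D2:**
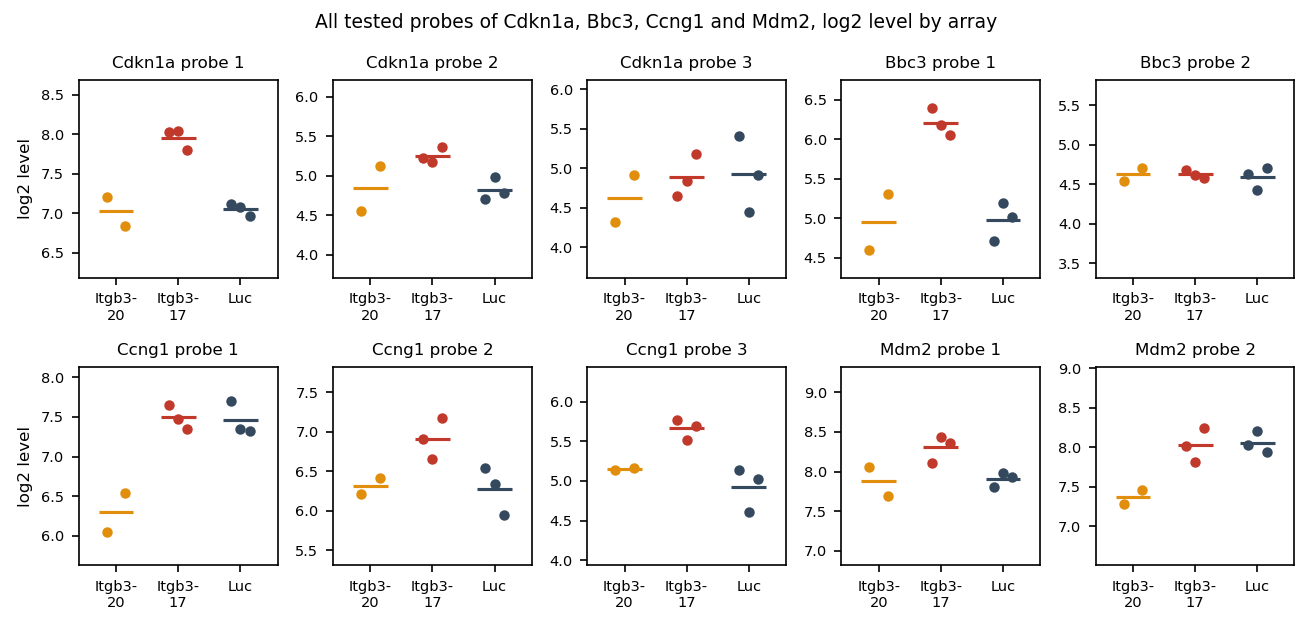
Log2 level on each array (points) and group mean (lines) for all 10 tested probes of Cdkn1a, Bbc3, Ccng1 and Mdm2, with Itgb3-20, Itgb3-17 and Luc arrays from left to right and each y axis spanning the same range of log2 units. Probe 1 of Cdkn1a and of Bbc3 is highest in the 3 Itgb3-17 arrays, and probe 1 of Ccng1 is lowest in the 2 Itgb3-20 arrays.

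The other p53 targets of arrest and stress had no called probe. Gadd45b, a stress sensor of the GADD45 family, read 4.32 and 4.53 in Itgb3-20 arrays (not above background), 5.06, 5.17 and 4.85 in Itgb3-17 arrays, and 4.38, 4.70 and 4.78 in Luc arrays. Its change with Itgb3-17 was 0.41 (adjusted p 0.116), and that of its relative Gadd45g was 0.49 (adjusted p 0.104). Zmat3, a p53 target that encodes an RNA-binding protein, was above background on 2 Itgb3-17 arrays and on no Itgb3-20 or Luc array. Its mean with Itgb3-17 was at least 1.03-fold that of control, a bound on the means and not a called rise (adjusted p 0.0955). Gadd45a, Sesn1 (a stress-induced regulator of TORC1) and Trp53inp1 had changes in knockdown minus control between -0.24 and 0.19, and Ccng2 was above background on 2 Itgb3-17 arrays alone. Of the arrest and stress targets Phlda3, Tigar and Plk2 had no tested probe.

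Bbc3, which encodes the BH3-only protein PUMA, a main executor of p53-dependent death in blood cells, had the largest rise of any member probe with Itgb3-17. Its probe 1 read 4.60 and 5.31 in Itgb3-20 arrays, 6.40, 6.18 and 6.05 in Itgb3-17 arrays, and 4.71, 5.20 and 5.01 in Luc arrays. The Itgb3-17 arrays were again above all others, and the Itgb3-20 and Luc arrays overlapped. Bbc3 changed by -0.02 ± 0.220 with Itgb3-20 (adjusted p 0.969), where the probe was above background on 1 of 2 arrays, and rose by 1.24 ± 0.196 with Itgb3-17, 2.36-fold (adjusted p 0.00138). The mean over both hairpins was called at 0.61 (adjusted p 0.0266), a call lost without Luc replicate 1 (0.49, 0.135) or 3 (0.63, 0.0631), Itgb3-17 replicate 1 (0.55, 0.0586) or 2 (0.62, 0.0528), or Itgb3-20 replicate 5 (0.43, 0.0812), with no filter (0.144) and with both hairpins as a single group (0.73, 0.116). Probe 2 lay near background, between 4.43 and 4.71 on all 8 arrays.

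Bad encodes a BH3-only protein that survival kinases such as AKT keep inactive. It read 6.69 and 6.70 in Itgb3-20 arrays, 6.60, 6.74 and 6.40 in Itgb3-17 arrays, and 5.90, 5.61 and 5.41 in Luc arrays. Every knockdown array was above every control array. The rise was 1.00 ± 0.151 in knockdown minus control (adjusted p 0.000694), 1.05 with Itgb3-20 (adjusted p 0.00328) and 0.94 with Itgb3-17 (adjusted p 0.00238). Bid, the BH3-only protein cut by caspase-8, read 7.42 and 6.81 in Itgb3-20 arrays, 6.92, 7.24 and 6.93 in Itgb3-17 arrays, and 6.87, 6.67 and 6.60 in Luc arrays. Its groups overlapped, and the change of 0.36 did not pass (adjusted p 0.147). Bcl2l11, which encodes BIM, read 5.67 and 4.88 in Itgb3-20 arrays, 5.44, 5.05 and 5.37 in Itgb3-17 arrays, and 5.66, 5.06 and 4.80 in Luc arrays. These values overlapped throughout (change 0.11, adjusted p 0.777). The BH3-only genes Pmaip1 (NOXA), Bik and Bmf were above background on no array.

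Mcl1, the antiapoptotic BCL2 relative on which many myeloid leukaemia cells depend, rose as well. It read 5.93 and 6.37 in Itgb3-20 arrays, 6.16, 6.30 and 6.26 in Itgb3-17 arrays, and 5.19, 5.11 and 5.56 in Luc arrays. The knockdown and control arrays did not overlap. The rise was 0.90 ± 0.155 in knockdown minus control (1.87-fold, adjusted p 0.00134), 0.86 with Itgb3-20 (adjusted p 0.0106) and 0.95 with Itgb3-17 (adjusted p 0.0028). Of these the Itgb3-20 call was lost without Itgb3-20 replicate 5 (0.64, 0.0723) and under median scaling (0.99, 0.0831). Bcl2, the founding inhibitor of the family, lay near background. Its probe 1 read 4.66 and 4.60 in Itgb3-20 arrays (not above background), 4.59, 5.23 and 4.64 in Itgb3-17 arrays, and 4.61, 4.34 and 4.84 in Luc arrays. Its probe 2 read 4.45 and 4.23 in Itgb3-20 arrays (not above background), 4.80, 4.35 and 4.29 in Itgb3-17 arrays, and 4.59, 4.68 and 4.67 in Luc arrays. Groups overlapped on both probes, with changes of opposite sign (0.13 and -0.23, adjusted p 0.669 and 0.327). Bcl2l1 (BCL-XL) had 4 probes, of which the best was above background on 1 array, and Bcl2a1a had no probe under that symbol. Neither pore-forming gene was measured: Bax had no probe under its symbol, and Bak1 was above background on no array.

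Among caspases and the apoptosome, Casp2, the initiator caspase that the PIDDosome activates, rose. It read 8.02 and 7.84 in Itgb3-20 arrays, 8.12, 8.50 and 8.21 in Itgb3-17 arrays, and 7.53, 7.60 and 7.65 in Luc arrays. All knockdown arrays were above all control arrays, with a rise of 0.51 ± 0.142 in knockdown minus control (adjusted p 0.0218) and of 0.68 with Itgb3-17 (adjusted p 0.00999), and a change of 0.33 with Itgb3-20 that did not pass (adjusted p 0.253). The difference between the hairpins did not pass either (-0.35, adjusted p 0.459). The knockdown call was lost without Luc replicate 1 (0.48, 0.0781) or 2 (0.51, 0.0646), Itgb3-17 replicate 2 (0.46, 0.0546) or Itgb3-20 replicate 4 (0.46, 0.064), and the Itgb3-17 call without Itgb3-17 replicate 2 (0.58, 0.0664).

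Apaf1, the scaffold of the apoptosome and a p53 target, again depended on the probe. Probe 3 read 4.33 and 4.99 in Itgb3-20 arrays, 5.12, 5.22 and 4.82 in Itgb3-17 arrays, and 6.00, 5.86 and 5.34 in Luc arrays. Its knockdown arrays were all below the controls, with falls of 0.88 ± 0.187 in knockdown minus control (adjusted p 0.00503), 1.08 with Itgb3-20 (adjusted p 0.00895) and 0.68 with Itgb3-17 (adjusted p 0.0407). Without a filter (0.0627 for the mean over hairpins) and under median scaling (-0.57, 0.0901) none of these calls held. The Itgb3-20 call was also lost without Itgb3-20 replicate 4 (-0.76, 0.140), and the Itgb3-17 call was lost with no background correction (0.0776), with the authors' values (0.0563) and without any 1 of Luc replicate 1 (-0.56, 0.148) or 2 (-0.63, 0.129) or Itgb3-17 replicate 1 (-0.69, 0.0936), 2 (-0.77, 0.0776) or 3 (-0.55, 0.152). Probes 1 and 2 ranged between 7.48 and 8.21 on the 8 arrays and had changes of -0.21 (adjusted p 0.407) and -0.02 (adjusted p 0.945). Casp9, which the apoptosome activates, changed by 0.06 on probe 1 (adjusted p 0.850), Casp8 by 0.26 on probe 1 (adjusted p 0.226) and the effector caspase Casp6 by -0.28 (adjusted p 0.244).

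In the death receptor branch, Cflar, which encodes the caspase-8 inhibitor c-FLIP, read 5.95 and 5.24 in Itgb3-20 arrays, 5.33, 5.43 and 5.42 in Itgb3-17 arrays, and 4.65, 4.99 and 5.08 in Luc arrays. All knockdown arrays lay above all controls. The rise was 0.59 ± 0.170 in knockdown minus control (adjusted p 0.0252) and 0.69 with Itgb3-20 (adjusted p 0.0452), and the change of 0.49 with Itgb3-17 did not pass (adjusted p 0.101) but did with the replicate number as a block (0.49, adjusted p 0.0426). The Itgb3-20 call was lost in 12 of 15 alternatives, with a change of 0.35 (adjusted p 0.452) without Itgb3-20 replicate 4, and the knockdown call in 6 of 16, with adjusted p as high as 0.123 without Luc replicate 1.

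Fadd, the adaptor between FAS and caspase-8, read 7.35 and 7.02 on probe 1 in Itgb3-20 arrays, 6.87, 6.87 and 7.03 in Itgb3-17 arrays, and 7.34, 7.39 and 7.57 in Luc arrays. The Itgb3-17 arrays were all below the controls and the probe fell by 0.51 ± 0.158 with that hairpin (adjusted p 0.0442), against -0.25 with Itgb3-20 (adjusted p 0.419), with a difference between the hairpins of 0.26 (adjusted p 0.619). Fadd probe 2 changed by -0.28 with Itgb3-17 (adjusted p 0.366). The probe 1 call was lost without any 1 of the 3 Luc or 3 Itgb3-17 arrays, with adjusted p between 0.0671 without Itgb3-17 replicate 3 and 0.142 without Itgb3-17 replicate 2, and under median scaling the probe 1 change was -0.07 (adjusted p 0.902). The receptors Fas and Tnfrsf10b (the mouse TRAIL receptor), both p53 targets, had 5 tested probes, with no call. In knockdown minus control 4 of these had changes between -0.27 and 0.28. Fas probe 2 was above background on 3 of 5 knockdown arrays and on no Luc array. Its knockdown mean was at least 1.01-fold that of control, a bound on the means and not a called rise (adjusted p 0.189).

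Birc2, which encodes the ubiquitin ligase cIAP1, read 6.63 and 6.76 on probe 1 in Itgb3-20 arrays, 6.74, 6.78 and 6.69 in Itgb3-17 arrays, and 6.22, 6.41 and 6.21 in Luc arrays. The 5 knockdown arrays were above the 3 controls, and the rise was 0.44 ± 0.134 (adjusted p 0.0351). Probes 2 and 3 of Birc2 did not share it, with overlapping groups, levels between 4.29 and 5.33 and changes of -0.26 (adjusted p 0.360) and -0.05 (adjusted p 0.873). Changes of probe 1 were alike with Itgb3-20 (0.41, adjusted p 0.124) and Itgb3-17 (0.46, adjusted p 0.0537), neither of which passed alone in the main fit. The Itgb3-17 change was called in some alternatives, among them no background correction (0.24, 0.0176), the authors' values (0.26, 0.0315) and array weights (0.45, 0.0394). The knockdown call was lost in 8 of 16 alternatives, 7 of which left out 1 array, with adjusted p as high as 0.112 without Luc replicate 1. Xiap and Birc3 were not tested. Of the mitochondrial effectors, Diablo (SMAC, which relieves caspases of their inhibitors) changed by 0.02 (adjusted p 0.945) and Aifm1, the apoptosis-inducing factor, by -0.32 (adjusted p 0.130). Knockdown and control arrays did not overlap for Aifm1, but it lay near background, above it on 1 Itgb3-17 array and no Itgb3-20 array.

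**Figure D3:**
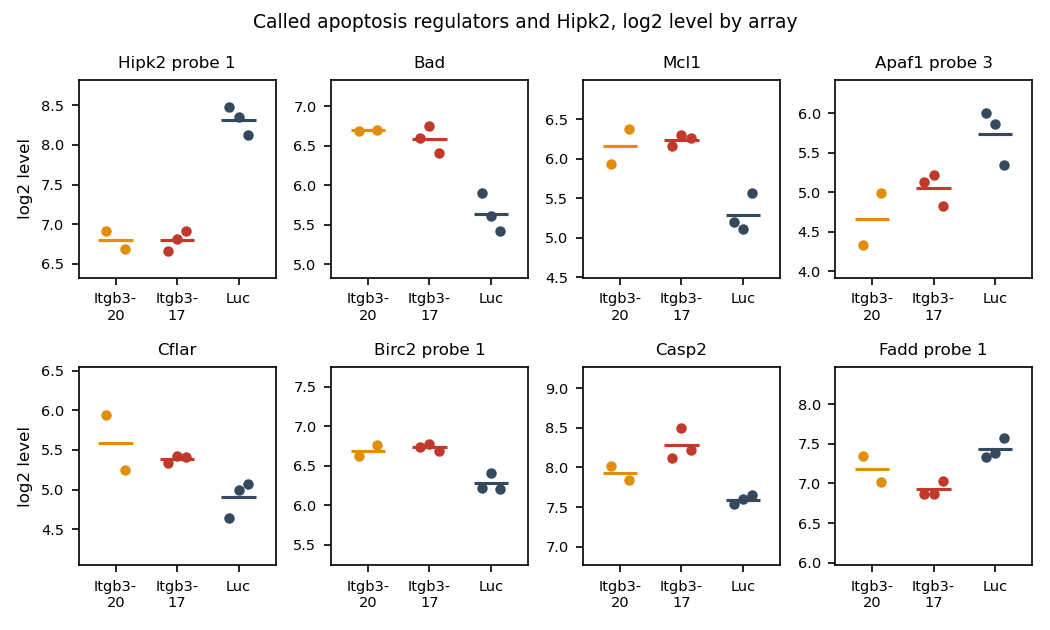
Log2 level on each array (points) and group mean (lines) for the called probes of Hipk2, Bad, Mcl1, Apaf1, Cflar, Birc2, Casp2 and Fadd, with Itgb3-20, Itgb3-17 and Luc arrays from left to right and each y axis spanning the same range of log2 units. Hipk2 and Apaf1 probe 3 are lower, and Bad, Mcl1, Cflar, Birc2 and Casp2 higher, in all 5 knockdown arrays than in any of the 3 Luc arrays, while Fadd overlaps.

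Across members, 5 probes had all knockdown arrays above all controls and 4 had them all below, 9.09% and 7.27% of the 55, beside 11.5% and 8.87% of all tested probes (20.3% in either direction). In 21 of the 33 measured genes no probe was called in any comparison, a count that was not made over all genes and so has no share to stand beside. Over the 41 probes without a call, changes in knockdown minus control ran between -0.38 and 0.36. Of 29 pairs of probes of the same gene, in 15 genes, 17 had the same sign in knockdown minus control. Where probes of a gene disagree, as for Ccng1, Mdm2, Hipk2, Cdkn1a, Bbc3, Apaf1, Birc2 and Fas, the files hold no probe sequences that would show which transcript each reports.

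The hairpins themselves were compared in the same fit. Of all 13315 probes 71 differed between Itgb3-20 and Itgb3-17, and 3 of those belonged to the genes described here, all p53 targets and all lower with Itgb3-20. Bbc3 probe 1 averaged 4.95 ± 0.503 (SD, n = 2) in Itgb3-20 arrays and 6.21 ± 0.176 (SD, n = 3) in Itgb3-17 arrays, a difference of -1.25 (95% interval -1.72 to -0.79, adjusted p 0.0192). Ccng1 probe 1 averaged 6.29 ± 0.340 in Itgb3-20 arrays and 7.50 ± 0.152 in Itgb3-17 arrays, a difference of -1.20 (95% interval -1.62 to -0.79, adjusted p 0.0111). Cdkn1a probe 1 averaged 7.03 ± 0.265 in Itgb3-20 arrays and 7.96 ± 0.129 in Itgb3-17 arrays, a difference of -0.93 (95% interval -1.31 to -0.55, adjusted p 0.0301). For each of the 3 probes both Itgb3-20 arrays were below all 3 Itgb3-17 arrays.

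These calls of a difference rest on few arrays. All 3 were lost under median scaling (adjusted p 0.103 each), with no filter (0.0843 for Cdkn1a, 0.0879 for Ccng1 and 0.128 for Bbc3), and without Itgb3-17 replicate 1 (-0.89 and 0.116 for Cdkn1a, -1.12 and 0.0633 for Ccng1, -1.12 and 0.0852 for Bbc3) or replicate 2 (-0.89 and 0.152, -1.22 and 0.0942, -1.28 and 0.108). Cdkn1a was also lost without Itgb3-17 replicate 3 (-1.0, 0.0717) or Itgb3-20 replicate 5 (-0.75, 0.0868), Ccng1 without Itgb3-20 replicate 4 (-0.96, 0.0831), and Bbc3 without Itgb3-17 replicate 3 (-1.30, 0.0533) or Itgb3-20 replicate 4 (-0.91, 0.128).

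No other member p53 target had a called difference between the hairpins in the main fit. Over the 27 tested probes of the 14 genes described here as p53 targets, 20 had a difference below 0, with a median of -0.27, beside 50.9% below 0 and a median of -0.01 over all tested probes. Probes of the same gene were counted apart, so the 27 are not independent. The count also depends on the choice of genes, which took in Ccng2, Gadd45b and Gadd45g (-0.32, -0.60 and -0.41) and left out Bid and Casp6 (0.09 and 0.42). The 5 probes of Fas and Tnfrsf10b all lay above 0, between 0.04 and 0.37. Of these, Fas probes 1 and 3, the ends of that range, and Tnfrsf10b probe 2 were above background on no Itgb3-17 array. Those measured with both hairpins, Fas probe 2 and Tnfrsf10b probe 1, differed by 0.18 and 0.15 (adjusted p 0.809 and 0.870). Of the 27 probes, 7 were above background on no array of 1 hairpin, so that their differences are not measured on both sides, and 3 of those 7 were below 0. Mdm2 probe 2 differed by -0.66 (adjusted p 0.115), and Ccng1 probes 2 and 3 by -0.59 and -0.51 (adjusted p 0.229 and 0.268). In limma the Mdm2 difference was called with no background correction (-0.48, adjusted p 0.0315) and with the authors' values (-0.48, 0.0271). It was also called with trend and robust moderation (-0.66, 0.03). The summed granulocyte, monocyte, myeloid progenitor and handling stress markers and the sorting marker Fcgr3, given above, were higher in Itgb3-20 than in Itgb3-17 arrays, and their part in these differences was not tested. The 2 hairpins were read against the same Luc arrays, so their changes against control are not independent.

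**Figure D4:**
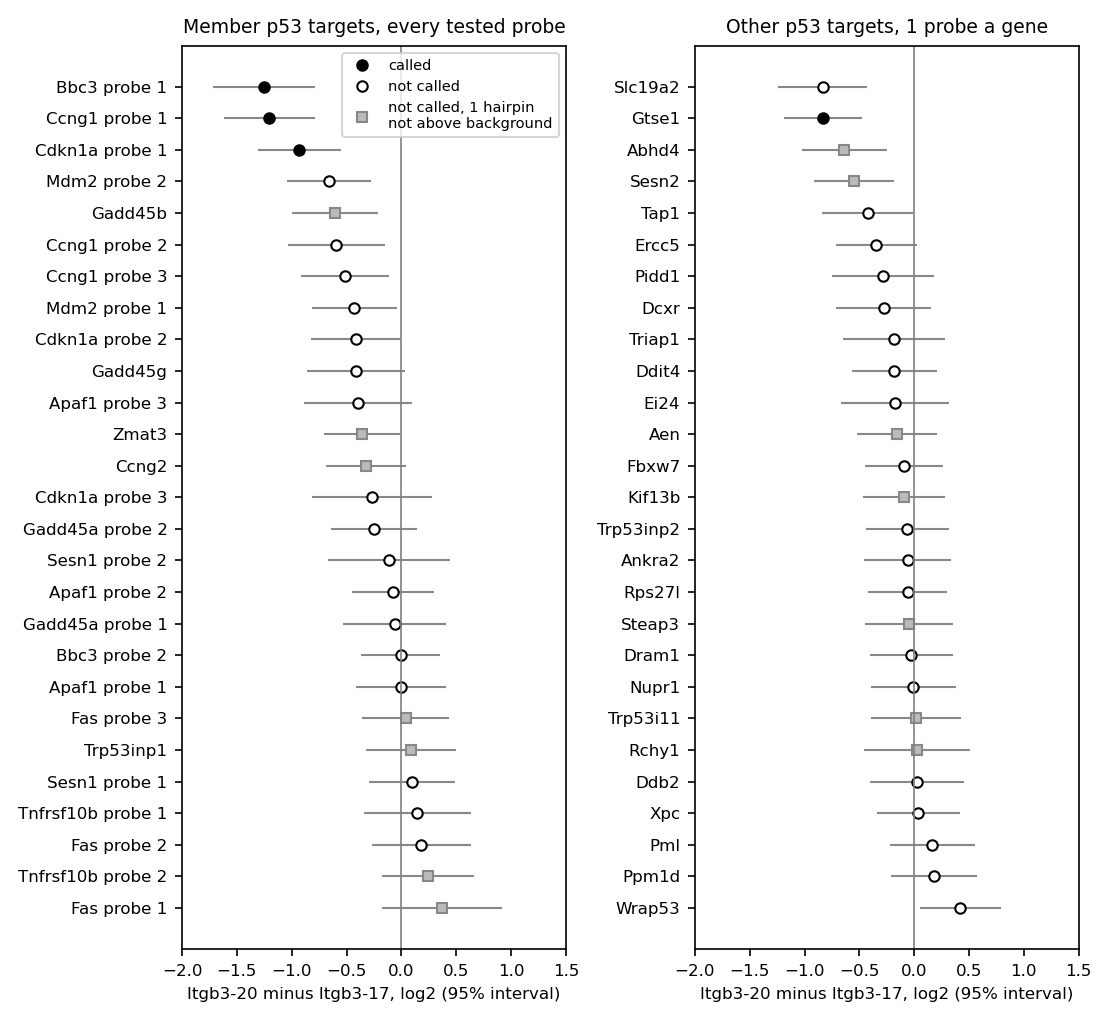
Difference between the hairpins, Itgb3-20 minus Itgb3-17, in log2 units with its 95% interval, for the 27 tested probes of the 14 genes described here as p53 targets (left) and for 1 probe of each of 27 other p53 targets (right). Filled points were called at adjusted p under 0.05: Cdkn1a, Bbc3 and Ccng1 probe 1 on the left and Gtse1 on the right, all lower with Itgb3-20. Grey squares mark probes above background on no array of 1 hairpin. On the left all Fas and Tnfrsf10b probes lie above 0, with Fas probes 1 and 3 and Tnfrsf10b probe 2 among the squares.

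Other genes of the pathway were read from lists drawn up by role, with earlier results of these data known. The shares of these lists are therefore descriptive and no independent test. Of 54 further p53 targets 27 were tested. With Itgb3-20, 2 were higher and 0 lower (7.41%, beside 11.5% of all genes, 6.26% higher and 5.28% lower), with a median change of 0.01. With Itgb3-17, 9 were higher and 0 lower (33.3%, beside 13.9%, 7.53% higher and 6.34% lower), with a median change of 0.40. In Itgb3-20 minus Itgb3-17, 20 of the 27 were below 0 (74.1%, beside 48.4% of all genes), and 1 was called, beside 0.672% of all genes (0.330% higher and 0.342% lower): Gtse1, which restrains p53 in G2, at -0.83 (adjusted p 0.0343). Without Itgb3-17 replicate 1 the 9 calls with Itgb3-17 became 1.

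In knockdown minus control 6 of these targets were higher and 1 lower (25.9%, beside 17.7% of all genes), with a median change of 0.13. The lowest p on the list of further targets belonged to Wrap53, an antisense neighbour of Trp53 that encodes a telomerase factor. Whether p53 acts on Wrap53 in these cells was not tested. It read 5.64 and 5.27 in Itgb3-20 arrays, 5.04, 4.96 and 5.11 in Itgb3-17 arrays, and 4.29, 4.39 and 4.50 in Luc arrays, on none of which it was above background. Its mean was therefore at least 1.43-fold higher in knockdown (adjusted p 0.00114). Ddb2, a damage-recognition factor of nucleotide excision repair, rose by 0.70 (adjusted p 0.00843), Pidd1, the scaffold that activates caspase-2, by 0.65 (adjusted p 0.0184) and Nupr1, a stress-response cofactor, by 0.53 (adjusted p 0.0207).

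Of 26 further regulators of p53, 14 were tested, and 2 were higher and 4 lower with knockdown (42.9%, beside 17.7% of all genes, 9.46% higher and 8.25% lower), with a median of -0.13 that turned to 0.10 under median scaling. Rpl23, a ribosomal protein that binds MDM2, rose by 0.86 (adjusted p 0.00109) and the kinase gene Hipk1, a relative of Hipk2, by 0.52 (adjusted p 0.0145). Trp53bp1, which encodes the repair factor 53BP1, fell by 0.82 (adjusted p 0.0021) and Axin1, a scaffold of the WNT pathway that also binds HIPK2, by 0.53 (adjusted p 0.0156). Of 60 further apoptosis genes 42 were tested, with 5 higher and 3 lower (19%, beside 17.7% of all genes) and a median of 0.08. Bnip2, which encodes a BCL2-interacting protein, fell by 1.03 (adjusted p 0.00072), Birc5 (survivin) by 0.65 (adjusted p 0.00841) and the co-chaperone gene Bag3 by 0.64 (adjusted p 0.0114). Dedd2, which encodes a death-effector domain protein, was above background on all 5 knockdown arrays and no control array, a rise of at least 1.31-fold (adjusted p 0.00671). Of 15 genes of the G1 phase of the cell cycle 12 were tested and 0 were called in knockdown minus control by limma, beside 17.7% of all genes. At an unadjusted p under 0.05, 1 was higher and 1 lower, beside 16.4% and 14.6% of all genes (31.0% in either direction).

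Because p53 binds DNA through a half-site of 10 bases with a core of C, 2 bases that are A or T, and G, the 250 bases before each annotated start were read for the half-site consensus of p53, which is its own reverse complement, so both strands were covered. It was present in 9 of 59 windows of the genes described here (15.3%), against 2341 of 32851 windows in all (7.13%). By gene it was present for 9 of 42 (21.4%), against 2216 of 27025 (8.2%), namely Bmf, Gadd45a, Bax, Cdkn2d, Sesn1, Mdm2, Ccng1, Trp53 and Cdkn1a. A match is a stretch of letters and no sign of binding in these cells. The promoters of Cdkn1a, Ccng1 and Mdm2, targets with a half-site that differed between hairpins or between probes, are shown. Those of Bbc3 and Apaf1, without a match, are not. The sequences are from RefSeq on GRCm38.p6, read 5′ to 3′ along the gene, with the half-sites in capitals.
Cdkn1a, chr17:29090729-29090978, plus strand: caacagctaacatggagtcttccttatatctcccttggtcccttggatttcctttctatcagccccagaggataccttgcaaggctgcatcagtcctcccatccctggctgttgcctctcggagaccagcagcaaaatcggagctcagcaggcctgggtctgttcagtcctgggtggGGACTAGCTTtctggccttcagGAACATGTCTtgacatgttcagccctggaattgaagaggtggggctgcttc
Ccng1, chr11:40755287-40755536, minus strand: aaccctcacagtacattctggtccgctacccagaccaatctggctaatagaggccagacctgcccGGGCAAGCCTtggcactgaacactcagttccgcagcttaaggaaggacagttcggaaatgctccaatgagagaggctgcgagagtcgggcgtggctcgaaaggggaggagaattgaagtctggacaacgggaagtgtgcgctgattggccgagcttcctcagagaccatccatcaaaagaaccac
Mdm2, chr10:117710759-117711008, minus strand: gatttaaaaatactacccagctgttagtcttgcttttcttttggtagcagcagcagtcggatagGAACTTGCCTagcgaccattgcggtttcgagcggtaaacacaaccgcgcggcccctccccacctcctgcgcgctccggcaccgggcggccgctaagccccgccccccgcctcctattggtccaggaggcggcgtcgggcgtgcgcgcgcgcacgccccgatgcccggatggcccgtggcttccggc
Cdkn1a was the only one of the genes described here with 2 half-sites no more than 13 bases apart, a pattern of 21 windows in all (0.0639%). They begin 73 and 51 bases before the start shown, with 12 bases between them. The bases right after the second match, tgacatgttc, miss the consensus by 1 base and were not counted. The pair and its spacing are thus those of exact matches alone. The window of the other annotated Cdkn1a start held 0 matches. Ccng1 and Mdm2 hold 1 half-site each, beginning 185 and 186 bases before the start. Bbc3, whose probe 1 had the larger rise with Itgb3-17, had no match in its 3 windows, which says only that the letters are not there.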

How the data were processed

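Illumina bead arrays of sorted mouse leukaemia stem cells were read. The deposited intensity of each probe is not normalized, per the file headers, and the authors deposited a detection p-value beside it, how it was computed being not given in the sources used here. One more table deposited by the authors holds log2 values in the same rank order, with method, centring and offset unstated, each column with a median of 6.61, and was used as an alternative.

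Intensities were corrected with limma 3.58.1 in R 4.3.3 (normexp with negative controls inferred from detection p, offset 16), quantile normalized and put on the log2 scale. The test covered the 13315 of 45281 probes whose detection p was below 0.05 on 2 or more arrays. A model of 3 groups over 8 arrays (lmFit, eBayes, two-sided) gave 4 contrasts, with Benjamini-Hochberg adjustment over all tested probes. The fit was tested on simulated data. Symbols came from an array annotation: 34885 probes had 1 symbol, 18 several and 10378 none. The number of arrays limits the precision. For a probe that no array of a group showed above background, the fold is given as a lower bound, set against the higher of its level and the dimmest level above background. Values were given for members called in any contrast and for Trp53, Mdm2, Cdkn1a, Ccng1, Cdkn2a, Bax, Bbc3, Pmaip1, Bcl2l11, Bcl2, Bcl2l1 and Mcl1, and for up to 4 genes of lowest p in each pathway list. Genes and lists were chosen with earlier results of these data known. Marker lists for B cells, T and NK cells, platelets and stroma had 1, 2, 1 and 1 tested genes, with 0 called in knockdown minus control by limma and 0 at an unadjusted p under 0.05. Same-numbered Itgb3-17 and Luc arrays did not deviate together (correlations 0.03, -0.02 and -0.01), so numbers were not taken as pairs.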

Additional observations from a re-analysis of the deposited data

Results flagged for a closer look

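p53 targets, 4 in number, differed between the hairpins in a test of the difference itself, Itgb3-20 minus Itgb3-17, over all 13315 tested probes in limma. Bbc3 probe 1 differed by -1.25 (adjusted p 0.0192), Ccng1 probe 1 by -1.20 (adjusted p 0.0111), Cdkn1a probe 1 by -0.93 (adjusted p 0.0301) and Gtse1, from the list of further targets, by -0.83 (adjusted p 0.0343). In each case both Itgb3-20 arrays lay below all 3 Itgb3-17 arrays. Under median scaling and with no filter, 0 members and 0 further targets were called in this comparison. The calls of Bbc3, Ccng1 and Cdkn1a were also lost without Itgb3-17 replicate 1 or 2. Gtse1 read 7.48 and 7.20 in Itgb3-20 arrays, 8.18, 8.16 and 8.17 in Itgb3-17 arrays, and 7.76, 7.67 and 7.63 in Luc arrays.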

How the results depend on the processing

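Of 31 called results on members, run 486 times over 17 alternatives, 366 kept direction and call, 120 kept direction and lost the call and 0 reversed. Kept in every alternative were 10: Hipk2 probe 1 and Bad in all 3 contrasts with control, Mcl1 in knockdown and with Itgb3-17, and Cdkn1a and Bbc3 probe 1 with Itgb3-17. With the replicate number as a block over the Itgb3-17 and Luc arrays all 10 Itgb3-17 calls were kept and 2 added, Cflar (0.49) and Casp6 (-0.49). Of 189 uncalled results 15 were called in some alternative.

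Median scaling shifted the median of all tested probes to 0.09 (Itgb3-20), 0.21 (Itgb3-17) and 0.15 (knockdown), and calls leaned upward: 1406 probes in knockdown (94.4% higher, against 53.2%), with 8 members higher and 1 lower. Under it Itgb3-20 gave 209 probes, 2 members and 1 further p53 target, the hairpin difference gave 2 probes, 0 members and 0 targets, and p53 regulators gave 2. With no filter knockdown gave 1444 probes, 6 members, 2 targets and 4 apoptosis genes, Itgb3-17 gave 1040 probes and 3 targets, Itgb3-20 gave 732 probes, 4 members and 1 target, and the difference gave 1 probe, 0 members and 0 targets. The difference gave 231 probes with no background correction (4 members), 249 with the authors' processed values (4 members) and 197 with trend and robust moderation, and each of these called 1 G1 gene in knockdown. Members called in knockdown split into 6 higher and 5 lower with no background correction and 7 higher and 5 lower with the authors' values. Array weights gave 851 probes and 1 target with Itgb3-20, and both hairpins as a single group gave 7 members.

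Leaving out 1 array in turn, knockdown gave 1367 to 2612 probes, 5 to 10 members, 1 to 6 targets, 3 to 6 regulators, 4 to 9 apoptosis genes and 0 to 1 G1 genes. Itgb3-20 gave 314 to 1735 probes, 4 to 8 members and 1 to 3 targets, Itgb3-17 gave 756 to 2173 probes, 6 to 13 members and 1 to 10 targets, and the difference gave 2 to 230 probes, 0 to 3 members and 0 to 2 targets. Where 1 Itgb3-20 array remained, it was assumed to vary like the other groups. The lowest counts came without Luc replicate 1 or 2, Itgb3-17 replicate 1 or 2 or Itgb3-20 replicate 4. The cause of these changes was not tested. The slide as a block was not run, as the files name none.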
